A study of Drosophila melanogaster with 10 samples.

Results

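Heterozygosity for dfoxo[25J13] in atf3[76] larvae was examined by RNA-seq of whole male Drosophila melanogaster in the third larval instar, raised at 25 °C. The libraries were chosen by their genotype labels. The comparison holds 4 of the 10 libraries of the series: 2 of the genotype y w, atf3[76];;dfoxo[25J13]/+, written foxo/+ below, and 2 of y w, atf3[76]. Both groups carry y, w and atf3[76], so they differ by the labels only in dfoxo[25J13]. The chromosome that carries this allele can hold other variants, so effects of the allele and of its chromosome cannot be told apart. The other 6 libraries, 2 each of atf3[76] with rel[E20]/+ (rel/+), of atf3[76] with atf3[A]/+ and of the stock y w, entered the model. For some of the genes they are given as levels beside the result. Their comparisons with atf3[76] use the same atf3[76] libraries, so they are not independent of the one described here.

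FOXO is a forkhead transcription factor that insulin signalling holds out of the nucleus and that is active when nutrients or insulin are low. Atf3 is a basic leucine zipper factor of the stress-responsive family, and the series' title places it in immune and metabolic homeostasis. Lysozymes of flies are encoded by a cluster of small genes on chromosome arm 3L. Several are made in the gut, where they digest bacterial cell walls. The comparison addresses which transcripts of atf3[76] larvae differ when 1 dfoxo[25J13] allele is present. The molecular lesions of the alleles are not stated in the labels, and neither is it stated that the libraries of a genotype came from separate cultures. P-values therefore measure only the spread between these samples, which may be technical. In whole larvae, fewer cells of a type and less RNA per cell cannot be told apart.

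Values are FPKM, fragment counts corrected for gene length and library size, and the lowest listed value is 1. A gene listed at 1 may be unexpressed or may lack an estimate: the muscle genes Mhc, up and wupA were listed at 1 in all 4 libraries compared. Of the genes whose median over the remaining libraries reached 10 FPKM, 0.203% and 0.868% were listed at 1 in the foxo/+ libraries, against 4.54% and 0.465% in the atf3[76] libraries. Among the 4 libraries compared, library 1 of atf3[76] thus stood apart, and results that rest on it are given with and without it. Library 1 of y w shared this trait, with 3.84% listed at 1, against 1.27% in library 2 of y w. Read depth is not given, but steps between the values of small nucleolar RNAs allowed an estimate. They placed the depth of atf3[76] library 1 at about 0.65, and of y w library 1 at about 0.52, of most other libraries. The steps of foxo/+ library 2 were larger than those of other libraries by a factor of 2.24 at 136 bp and 2.02 at 141 bp, so its depth could not be read from them. Across genes the foxo/+ pair correlated with r = 0.944 and the atf3[76] pair with r = 0.889 on the log2 scale, where genes are not independent replicates. Library 1 of atf3[76] correlated more closely with library 1 of y w, at r = 0.932. The yolk protein genes Yp1, Yp2 and Yp3 were listed at 1 in all 4 libraries and testis genes were detected.

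The alleles themselves left no mark that passed the test. The foxo transcript stood at 8.69 and 6.86 FPKM in foxo/+ larvae, against 4.30 and 8.73 FPKM in atf3[76] larvae, and the groups overlapped. Its log2 difference was 0.28 ± 0.62 (SE, n = 2 each; limma, adjusted p = 0.892), and the sign turned to -0.0053 with median centring, -0.048 with quantile normalization and -0.16 without atf3[76] library 1. Atf3, listed as A3-3, had 13.1 and 13.5 FPKM in foxo/+ larvae and 6.09 and 13.7 FPKM in atf3[76] larvae. Rel, the NF-kB factor of the Imd pathway, was level at 21.1 and 20.6 FPKM in foxo/+ larvae and 21.4 and 21.0 FPKM in atf3[76] larvae. The marker genes y and w were listed at 1 in all 4 libraries. A transcript level does not show whether an allele's product works, so these values do not check the labels.

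Of 11308 genes tested, 7 passed an adjusted p of 0.05, which is 0.0619% (limma on log2(FPKM + 1), with Benjamini-Hochberg adjustment). A total of 6 (0.0531%) rose in foxo/+ larvae: LysB, LysD, LysE and LysP of the lysozyme cluster, CG6838 and CG8136. The single gene that fell (0.00884%) was FBgn0010549, an l(2) gene named for a lethal mutation and given here by its FlyBase identifier. At an unadjusted p of 0.05, 650 genes passed (5.75%), of which 535 (4.73%) were higher and 115 (1.02%) lower in foxo/+ larvae. That 82.3% share of higher genes dropped to 38.3% after median centring and 40.7% after quantile normalization. The median log2 difference over all genes tested was 0.17 as deposited, -0.12 after centring and -0.04 after quantile normalization, so differences of lists are read against it. Both foxo/+ libraries lay above both atf3[76] libraries in 32.7% of genes tested and below both in 6.64%. The count of passing genes moved with single libraries. It was 153 higher and 7 lower without atf3[76] library 2, 9 and 14 without atf3[76] library 1, 24 and 1 without foxo/+ library 2, and 9 and 2 without foxo/+ library 1. In a fit of the 2 groups alone no gene passed, with 581 genes at an unadjusted p of 0.05 and the smallest adjusted p of LysB, LysD and LysE at 0.0566.

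**Figure D1:**
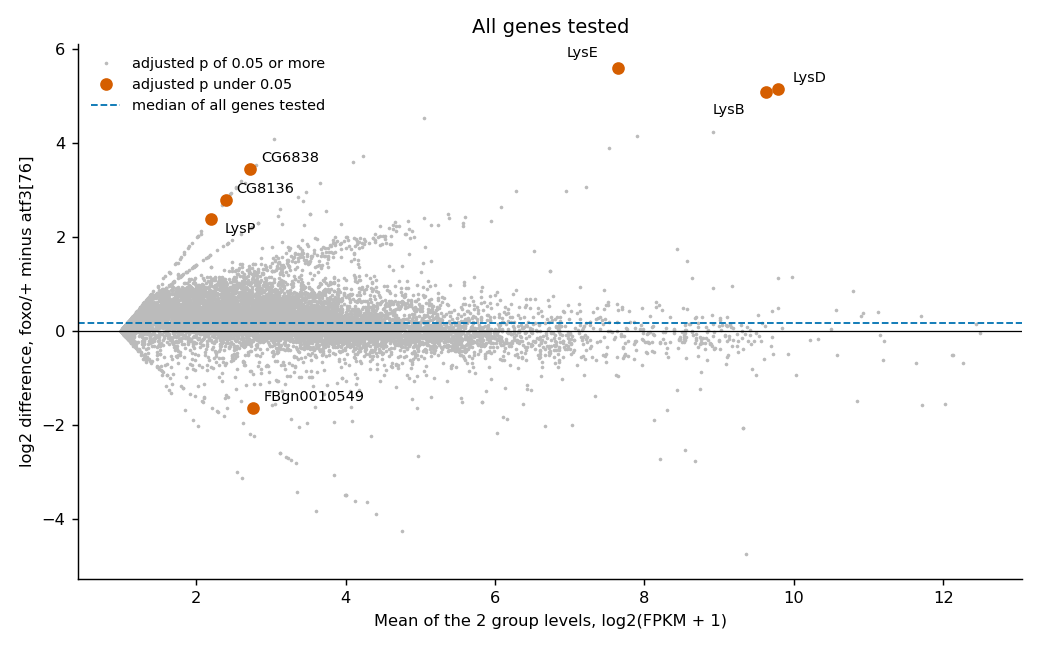
Each point is 1 of the 11308 genes tested, with the mean level of the 2 groups on log2(FPKM + 1) on the horizontal axis and the log2 difference of foxo/+ minus atf3[76] on the vertical axis. The 7 genes past the adjusted threshold are named; LysB, LysD and LysE stand at log2 differences of 5.09 to 5.60, and the dashed line marks the median of 0.17.

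The lysozyme transcripts made the largest measured difference among genes that passed. LysD, the most abundant of them, had 4527 and 6054 FPKM in foxo/+ larvae, against 134 and 158 FPKM in atf3[76] larvae. LysB had 3706 and 5642 FPKM in foxo/+ larvae, against 143 and 125 FPKM in atf3[76] larvae. LysE had 1086 and 1723 FPKM in foxo/+ larvae, against 25.4 and 29.2 FPKM in atf3[76] larvae. For each of these 3 midgut lysozymes the groups lay far apart, and the lower foxo/+ library exceeded the higher atf3[76] library many-fold. The ratio of group means was 36.3 for LysD, 34.99 for LysB and 51.4 for LysE. On the log2(FPKM + 1) scale the differences were 5.16 ± 0.22 for LysD, 5.09 ± 0.22 for LysB and 5.60 ± 0.26 for LysE (SE, n = 2 each; limma, adjusted p = 0.000177 for each). Over the 17 alternative settings these 3 genes kept the call in 16, with log2 differences between 4.87 and 5.44 for LysD, 4.79 and 5.39 for LysB, and 5.27 and 5.93 for LysE; the exception was the fit of the 2 groups alone.

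LysC, which lies beside LysD, was high in the same libraries, at 2058 and 2143 FPKM in foxo/+ larvae against 116 and 104 FPKM in atf3[76] larvae. Its log2 difference of 4.25 ± 1.07 did not pass (SE, n = 2 each; limma, adjusted p = 0.649). The spread in the model is shared by all 5 genotypes, and LysC was listed at 32.7 and 1 FPKM in the atf3[A]/+ libraries. LysP, known from adult salivary glands, had 9.95 and 9.05 FPKM in foxo/+ larvae and was listed at 1 in both atf3[76] libraries, so no fold is given (limma, adjusted p = 0.0419). Its call was kept in 6 of 16 alternatives and lost without foxo/+ library 1, foxo/+ library 2 or atf3[76] library 1, with adjusted p between 0.0248 and 0.307.

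The remaining lysozymes of the cluster did not follow. LysS, known from the larval gut, had 795 and 439 FPKM in foxo/+ larvae and 1350 and 600 FPKM in atf3[76] larvae, with overlapping groups and a log2 difference of -0.61 ± 0.61 (SE, n = 2 each; limma, adjusted p = 0.740). LysX had 41.9 and 37.8 FPKM in foxo/+ larvae and 42.8 and 25.2 FPKM in atf3[76] larvae, and its log2 difference of 0.27 turned to -0.019 with median centring and -0.10 without atf3[76] library 2. Of the 7 lysozymes listed, 4 passed in the higher direction and none in the lower, against 0.0531% of all genes in the higher direction. Their median log2 difference was 4.25, beside 0.17 for all genes tested.

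Set beside the other genotypes, LysB and LysD of foxo/+ larvae stood near y w. LysE was at 1086 and 1723 FPKM in foxo/+ larvae, above both y w libraries at 770 and 989 FPKM. LysD was at 4527 and 6054 FPKM in foxo/+ larvae, 5496 and 6158 FPKM in rel/+ larvae, 172 and 128 FPKM in atf3[A]/+ larvae and 5482 and 5715 FPKM in y w larvae. The foxo/+ and y w levels of LysD, LysB and LysE did not differ past the threshold, with log2 differences of -0.10 (adjusted p = 0.787), -0.04 (adjusted p = 0.907) and 0.65 (adjusted p = 0.257) in the same limma model. LysP of foxo/+ larvae did not stand near y w. It was at 9.95 and 9.05 FPKM in foxo/+ larvae, 13.3 and 21.2 FPKM in rel/+ larvae and 1.77 and 1 FPKM in y w larvae. The foxo/+ level of LysP was above that of y w (limma, adjusted p = 0.0240). These contrasts share libraries with the main one and are given as levels side by side.

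The 7 genes occupy positions 1194738 to 1228238 of chromosome arm 3L on build dm3. Their sequences are closely related, and how fragments were divided among them is not stated, so values of single genes are uncertain. LysC and LysD overlap each other, and LysC, LysD, LysE, LysP and LysS lie within mwh, the multiple wing hairs gene. The sum over the 7 genes depends less on that division among them. It is not free of it, since FPKM are corrected for gene length and LysC and LysD overlap. The sum was 12223 and 16049 FPKM in foxo/+ larvae, against 1811 and 1042 FPKM in atf3[76] larvae, and 14783 and 13924 FPKM in y w larvae. LysS, which did not follow, held 1350 and 600 FPKM of the sums in atf3[76] larvae. The means of 14136 ± 2705 FPKM in foxo/+ larvae and 1427 ± 544 FPKM in atf3[76] larvae (SD, n = 2 each) differed 9.91-fold. An exact permutation test of the sum, two-sided, gave p = 0.333, the smallest that 2 against 2 libraries allow.

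Genes that flank or enclose the cluster gave no value past the threshold. The host gene mwh stood at 4.31 and 7.40 FPKM in foxo/+ larvae, against 2.12 and 1.89 FPKM in atf3[76] larvae (limma, adjusted p = 0.649), and shares its position with 5 lysozymes. CG9119, between LysX and LysB, was at 19.4 and 29.8 FPKM in foxo/+ larvae and 41.5 and 29.4 FPKM in atf3[76] larvae. CG33965, just beyond LysS, was at 16.1 and 19.7 FPKM in foxo/+ larvae and 19.7 and 22.2 FPKM in atf3[76] larvae. None of 6 midgut protease markers passed. Without overlap 1 was higher and 3 were lower in foxo/+ larvae, beside 32.7% and 6.64% of all genes. The higher one was betaTry, described with the proteases. The 6 summed to 3492 and 3769 FPKM in foxo/+ larvae and 9895 and 2559 FPKM in atf3[76] larvae.

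**Figure D2:**
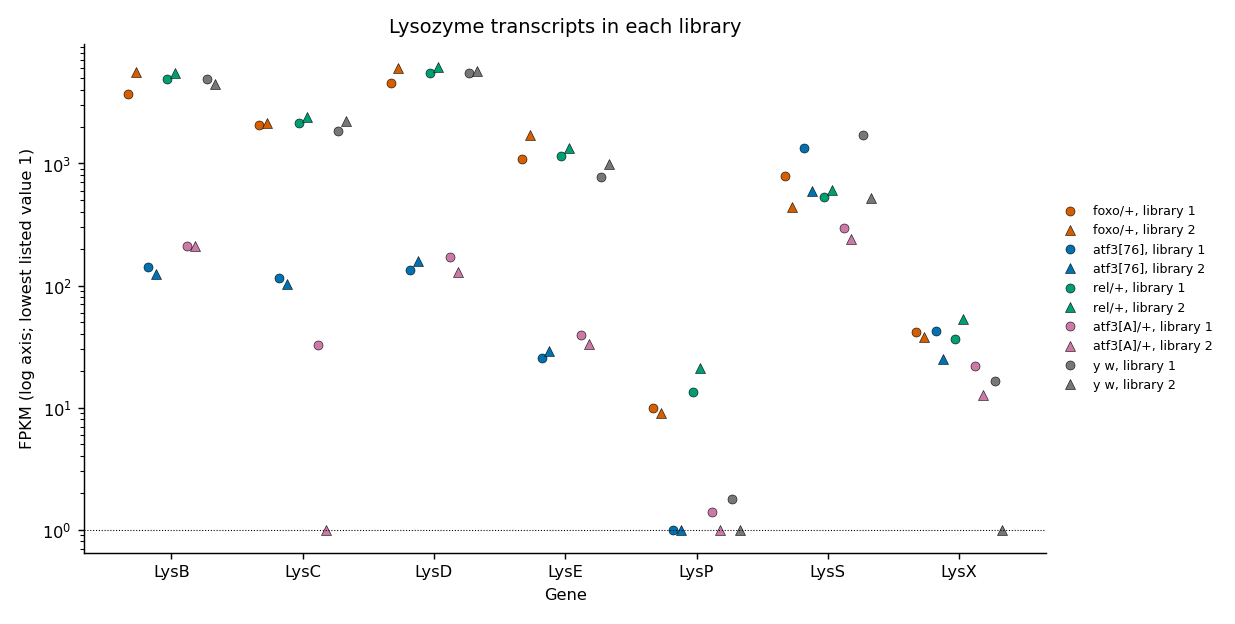
FPKM of the 7 lysozymes on a log axis, with 1 symbol per library (circle library 1, triangle library 2) and genotypes in colour; the dotted line is the lowest listed value of 1. LysB, LysC, LysD and LysE lie at 1086 FPKM or more in both foxo/+ libraries and between 25.4 and 158 FPKM in both atf3[76] libraries.

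Outside the cluster, 3 genes passed. CG6838, now named ArfGAP3, belongs to the activators of GTP hydrolysis by Arf proteins in vesicle traffic. It had 21.2 and 20.5 FPKM in foxo/+ larvae and was listed at 1 in both atf3[76] libraries (limma, adjusted p = 0.000177). It was likewise at 19.95 and 22.6 FPKM in rel/+ larvae and 18.2 and 15.1 FPKM in atf3[A]/+ larvae, but listed at 1 in both y w libraries. CG8136 had 14.2 and 11.6 FPKM in foxo/+ larvae and was listed at 1 in the other 8 libraries (limma, adjusted p = 0.000525). For both genes a listing at 1 cannot be told from a missing estimate, and no fold is given. Their calls held in 15 of 16 and 14 of 15 alternatives that tested them. Both were lost in the fit of the 2 groups alone (limma, adjusted p = 0.0566 for CG6838 and 0.0856 for CG8136). The alternatives reuse the same listings at 1, which have no spread, so these counts do not measure how sure the calls are.

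The fall of FBgn0010549, which encodes a transporter of the ABC family, was the only one past the threshold. It had 2.80 and 2.86 FPKM in foxo/+ larvae, against 11.4 and 10.7 FPKM in atf3[76] larvae, a log2 difference of -1.65 ± 0.18 (SE, n = 2 each; limma, adjusted p = 0.0419). The replicates agreed closely in both groups, and the level in foxo/+ larvae was next to the 3.26 and 3.28 FPKM of y w larvae. It was 8.92 and 7.72 FPKM in rel/+ larvae and 7.64 and 10.2 FPKM in atf3[A]/+ larvae. The call was kept in 6 of 17 alternatives and lost without foxo/+ library 1 (adjusted p = 0.307), foxo/+ library 2 (adjusted p = 0.131) or atf3[76] library 1 (adjusted p = 0.120).

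Among genes above 1 in all 4 libraries whose groups did not overlap, those next in p missed the threshold. Of 9538 genes above 1 in all 4, 32.4% were higher and 7.3% lower without overlap. CG17352, named Culd and encoding a protein with CUB domains, had 14.6 and 12.2 FPKM in foxo/+ larvae, against 4.11 and 4.22 FPKM in atf3[76] larvae and 11.6 and 9.43 FPKM in y w larvae (limma, adjusted p = 0.0738; 0.0399 without atf3[76] library 2). CG4783 had 24.1 and 20.03 FPKM in foxo/+ larvae, against 2.34 and 5.92 FPKM in atf3[76] larvae and 20.3 and 31.7 FPKM in y w larvae (limma, adjusted p = 0.386; 0.0235 without atf3[76] library 2), and overlaps Hs6st. CG3513 had 19.5 and 14.6 FPKM in foxo/+ larvae, against 45.1 and 50.9 FPKM in atf3[76] larvae and 16.0 and 15.3 FPKM in y w larvae (limma, adjusted p = 0.102; 0.00933 with median centring). In rel/+ larvae CG4783 was at 28.8 and 26.3 FPKM and CG3513 at 18.3 and 19.3 FPKM, near their foxo/+ levels. CG17352 was at 6.45 and 5.22 FPKM in rel/+ larvae, nearer to atf3[76]. In CG17352, CG4783 and CG3513 the foxo/+ values lay nearer to y w than the atf3[76] values did, but other genes of the rule lay the other way. CG11192 had 15.8 and 11.9 FPKM in foxo/+ larvae, against 6.45 and 4.71 FPKM in atf3[76] larvae and 3.30 and 2.02 FPKM in y w larvae. CG42335 had 14.6 and 21.7 FPKM in foxo/+ larvae, against 7.74 and 8.24 FPKM in atf3[76] larvae and 3.30 and 3.18 FPKM in y w larvae. The foxo/+ values of CG7276, CG13385, CG32021 and CG32368 were likewise farther from y w than the atf3[76] values were. The other 9 genes of that rule that were higher and lay outside the cluster, each with an adjusted p of 0.649, were CG7276, CG11192, CG42335, CG13385, CG32021, CG32368, Obp56a, betaTry and a small nucleolar RNA within RpL22. Lower genes of the rule not described elsewhere, each with a limma adjusted p of 0.649, were CG32302, CG13315, CG32407, CG30090, CG15534 and CG42566. CG32302, which overlaps yellow-g, had 251 and 303 FPKM in foxo/+ larvae, against 782 and 539 FPKM in atf3[76] larvae. In y w larvae it was at 90.9 and 71.5 FPKM.

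**Figure D3:**
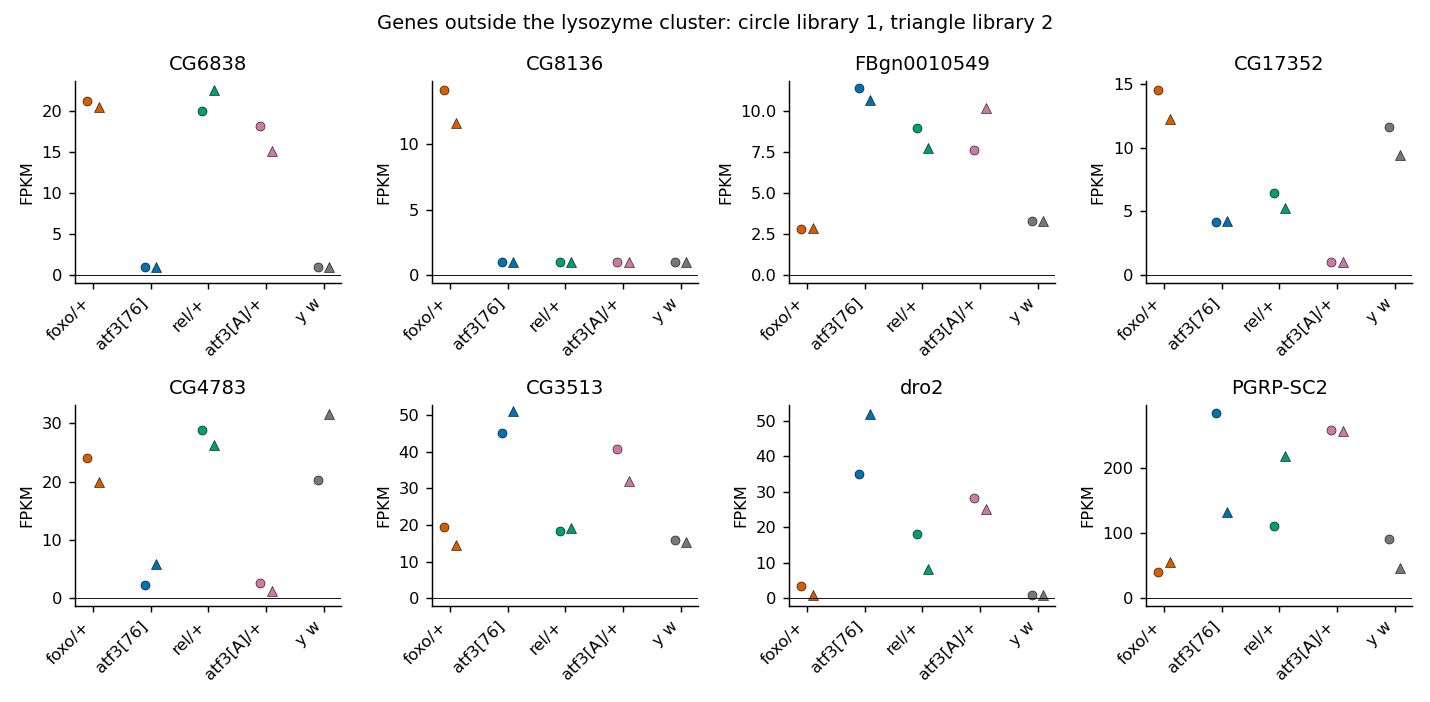
FPKM of 8 genes outside the lysozyme cluster, 1 panel per gene with its own axis, showing both libraries of each genotype (circle library 1, triangle library 2). CG6838, CG8136 and FBgn0010549 passed the adjusted threshold between foxo/+ and atf3[76]; in FBgn0010549 the foxo/+ values of 2.80 and 2.86 FPKM lie beside those of y w.

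Immune genes other than lysozymes held no call. In the list of antimicrobial peptides, 2 of 16 tested members lay higher and 1 lower without overlap, beside 32.7% and 6.64% of all genes tested. The median log2 difference was 0.08, and it turned to -0.38 without foxo/+ library 1, -0.21 after median centring and -0.17 after quantile normalization, and was 0.26 without foxo/+ library 2. The lower one was the Drosomycin-like peptide gene dro2, now Drsl2, with 3.62 and 1 FPKM in foxo/+ larvae, against 35.1 and 52.0 FPKM in atf3[76] larvae and a listing at 1 in both y w libraries (limma, adjusted p = 0.0738). Under 5 alternatives it passed, with adjusted p down to 0.0229 after median centring. Mtk, the metchnikowin gene, was at 60.5 and 11.4 FPKM in foxo/+ larvae and 2.60 and 8.06 FPKM in atf3[76] larvae, so that the foxo/+ libraries differed among themselves more than the lower of them did from atf3[76]. Drs, the drosomycin gene, was also widely spread, at 114 and 19.4 FPKM in foxo/+ larvae, against 95.1 and 138 FPKM in atf3[76] larvae, and is named after its values were seen.

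The induced peptide genes IM10 and IM1 and the recognition gene PGRP-SC2 had lower values in foxo/+ larvae without overlap, and none of the 3 passed. IM10 had 14.6 and 3.40 FPKM in foxo/+ larvae, against 51.8 and 28.1 FPKM in atf3[76] larvae (limma, adjusted p = 0.649), and IM1, a bomanin, had 16.9 and 15.6 FPKM in foxo/+ larvae, against 40.4 and 70.1 FPKM in atf3[76] larvae (limma, adjusted p = 0.658). In the list of Toll components and IM peptides, 3 of 25 tested members were higher and 6 lower without overlap, beside 32.7% and 6.64% of all genes. Their median log2 difference was -0.12, and 0.01 without foxo/+ library 2. In the Imd and peptidoglycan recognition list, 5 of 19 were higher and 1 lower, with a median of 0.15 that turned to -0.14 after median centring and -0.07 after quantile normalization. The lower one was PGRP-SC2, an amidase that degrades peptidoglycan, at 40.1 and 55.9 FPKM in foxo/+ larvae, against 285 and 133 FPKM in atf3[76] larvae and 90.8 and 47.4 FPKM in y w larvae (limma, adjusted p = 0.649). The intracellular Imd inhibitor pirk, named after its values were seen, had 22.3 and 30.5 FPKM in foxo/+ larvae and 11.8 and 14.1 FPKM in atf3[76] larvae. It did not pass the adjusted threshold.

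The insulin and FOXO pathway itself gave no call in 32 tested members of 35. Without overlap 8 were higher and 2 lower, beside 32.7% and 6.64% of all genes. The median log2 difference of 0.21 was close to that of all genes, also after median centring (-0.08) and quantile normalization (-0.03), and was 0.04 without foxo/+ library 1. The growth kinase S6k had 13.5 and 12.3 FPKM in foxo/+ larvae, against 6.94 and 10.7 FPKM in atf3[76] larvae (limma, adjusted p = 0.649). Akt1 had 13.1 and 10.5 FPKM in foxo/+ larvae, against 5.27 and 10.5 FPKM in atf3[76] larvae. Thor, the 4E-BP gene and a classical FOXO target, named here for that role after its values were seen, had 176 and 115 FPKM in foxo/+ larvae and 150 and 131 FPKM in atf3[76] larvae, overlapping with a log2 difference of 0.02. InR, the insulin receptor and another target, named for the same reason, was listed at 1.98 and 1 FPKM in foxo/+ larvae and at 1 in both atf3[76] libraries. Akh, the adipokinetic hormone gene, also named after its values were seen, was at 4.50 and 5.27 FPKM in foxo/+ larvae and 8.32 and 6.50 FPKM in atf3[76] larvae (limma, adjusted p = 0.649).

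Digestive protease genes were uneven in the atf3[76] pair. The 28 tested Jonah proteases and trypsins of 29 measured included no call, 2 higher and 10 lower without overlap, beside 32.7% and 6.64% of all genes. Their summed level was 20833 and 21571 FPKM in foxo/+ larvae, against 67693 and 20989 FPKM in atf3[76] larvae, so 1 atf3[76] library held about all of the gap in the sum. The median log2 difference of the list was -0.38, -0.66 after median centring and -0.24 after quantile normalization, and it turned to 0.16 without atf3[76] library 1 and was -0.82 without atf3[76] library 2. Jon99Ci did lie apart, with 18.9 and 12.8 FPKM in foxo/+ larvae, against 31.9 and 43.3 FPKM in atf3[76] larvae (limma, adjusted p = 0.649). Jon25Bi had 62.1 and 59.7 FPKM in foxo/+ larvae, against 401 and 152 FPKM in atf3[76] larvae (limma, adjusted p = 0.649). The trypsin betaTry lay the other way, with 499 and 701 FPKM in foxo/+ larvae, against 291 and 106 FPKM in atf3[76] larvae (limma, adjusted p = 0.649), and it overlaps CG30031. Members of both families are near-identical copies, so the values of single ones are uncertain.

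Lipases, amylases and maltases, which release fatty acids and sugars from food, also gave no call. Of 11 tested lipases 1 was higher and 4 lower without overlap, beside 32.7% and 6.64% of all genes. Lip3 was listed at 2.50 and 1 FPKM in foxo/+ larvae, against 62.7 and 11.7 FPKM in atf3[76] larvae and 2.62 and 1.68 FPKM in y w larvae, and it overlaps CheA87a (limma, adjusted p = 0.649). CG6295, a lipase of the gut type, had 28.5 and 25.5 FPKM in foxo/+ larvae, against 80.8 and 77.0 FPKM in atf3[76] larvae and 160 and 110 FPKM in y w larvae (limma, adjusted p = 0.649). Unlike Lip3, its foxo/+ level was farther from y w than its atf3[76] level was. Of 16 tested amylase, maltase and trehalose genes 3 were higher and 6 lower. The amylase Amy-d had 41.1 and 31.0 FPKM in foxo/+ larvae, against 114 and 159 FPKM in atf3[76] larvae (limma, adjusted p = 0.649), and the maltase LvpL, now Mal-A3, had 17.2 and 21.3 FPKM in foxo/+ larvae, against 34.3 and 30.5 FPKM in atf3[76] larvae (limma, adjusted p = 0.649).

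Central metabolism held no call, and its medians lay below that of all genes. In glycolysis 7 of 15 tested genes were lower without overlap and 1 higher, beside 6.64% and 32.7% of all genes, with a median log2 difference of -0.23, -0.51 after median centring, -0.17 after quantile normalization and -0.17 without atf3[76] library 1. ImpL3, the lactate dehydrogenase gene, had 49.4 and 60.5 FPKM in foxo/+ larvae, against 87.9 and 82.6 FPKM in atf3[76] larvae (limma, adjusted p = 0.649). In oxidative phosphorylation 37 of 40 log2 differences were below 0, where 71.6% of all genes tested lay above 0. Of the 40, 6 were lower without overlap and 1 higher, beside 6.64% and 32.7% of all genes. That list's median was -0.35 with all libraries, -0.08 without atf3[76] library 1 and -0.67 without atf3[76] library 2. The medians of all genes tested in these settings were 0.17, 0.13 and 0.22. Its summed level was 2697 and 3504 FPKM in foxo/+ larvae, against 4433 and 3567 FPKM in atf3[76] larvae.

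Detoxification and cuticle genes held many lower values, with no call. Of 20 tested glutathione transferases 8 were lower and 5 higher without overlap, beside 6.64% and 32.7% of all genes. Their median log2 difference was -0.37, -0.66 after median centring, -0.41 after quantile normalization, -0.34 without atf3[76] library 1 and -0.12 without foxo/+ library 1. GstE9 had 14.8 and 24.9 FPKM in foxo/+ larvae, against 50.8 and 34.2 FPKM in atf3[76] larvae, and overlaps imd. GstD4 had 5.11 and 8.79 FPKM in foxo/+ larvae, against 14.0 and 19.1 FPKM in atf3[76] larvae. Neither passed (limma, adjusted p = 0.649 for both). Of 74 tested cytochrome P450 genes 21 were lower and 11 higher, among them Cyp28d2 with 5.06 and 6.31 FPKM in foxo/+ larvae, against 11.9 and 11.8 FPKM in atf3[76] larvae. Their median of -0.03 stood below the 0.17 of all genes.

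Larval cuticle genes counted 74 tested members of 120, of which 26 were lower and 4 higher without overlap, beside 6.64% and 32.7% of all genes. The median log2 difference was -0.29, -0.58 after median centring, -0.37 after quantile normalization and -0.15 without atf3[76] library 1. Lcp65Ae had 3.61 and 5.22 FPKM in foxo/+ larvae, against 48.2 and 90.7 FPKM in atf3[76] larvae and 60.04 and 160 FPKM in y w larvae (limma, adjusted p = 0.649). TwdlO, a Tweedle cuticle gene, was listed at 1 in both foxo/+ libraries, against 10.3 and 21.6 FPKM in atf3[76] larvae and 8.74 and 26.4 FPKM in y w larvae (limma, adjusted p = 0.649). For both genes the foxo/+ values lay below those of atf3[76] and of y w. The list's summed level was 17769 and 26708 FPKM in foxo/+ larvae and 24416 and 25788 FPKM in atf3[76] larvae, which overlap.

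Genes of the testis and germline, counted as 1 list, held many higher values, with no call. Of 27 tested members of 29, 20 were higher in foxo/+ larvae without overlap and none lower, beside 32.7% and 6.64% of all genes. The median log2 difference was 0.58, 0.30 after median centring, 0.47 after quantile normalization and 0.32 without atf3[76] library 1, and no member passed the adjusted threshold. The sperm gene dj had 24.4 and 24.9 FPKM in foxo/+ larvae, against 4.27 and 23.2 FPKM in atf3[76] larvae. The meiotic regulator bol had 25.6 and 17.2 FPKM in foxo/+ larvae and was listed at 1 and 15.3 FPKM in atf3[76] larvae. The 8 testis markers summed to 232 and 192 FPKM in foxo/+ larvae, against 108 and 155 FPKM in atf3[76] larvae, and all 8 were higher without overlap. The 4 germline markers vas, nos, aub and bam had none higher or lower without overlap. They summed to 5.22 and 4.89 FPKM in foxo/+ larvae and 5.47 and 5.66 FPKM in atf3[76] larvae. Of them nos and bam were listed at 1 in all 4 libraries. The share of the testis in the body was not tested.

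No imaginal disc or hormone response gene passed, and the medians of both lists lay above that of all genes by an amount that moved with the scaling and with foxo/+ library 1. All 16 tested disc genes had a log2 difference above 0, beside 71.6% of all genes. Of them 10 were higher without overlap, beside 32.7% of all genes. The median was 0.50, 0.21 after median centring, 0.12 after quantile normalization, 0.35 without atf3[76] library 1 and 0.27 without foxo/+ library 1. The disc gene nub had 7.27 and 8.40 FPKM in foxo/+ larvae, against 6.09 and 3.76 FPKM in atf3[76] larvae. The morphogen gene dpp, named after its values were seen, had 3.61 and 3.10 FPKM in foxo/+ larvae and was listed at 1 in both atf3[76] libraries. It did not pass the adjusted threshold. In the ecdysone list 9 of 23 tested members were higher and 2 lower without overlap, beside 32.7% and 6.64% of all genes. The list's median was 0.42, 0.13 after median centring, 0.17 after quantile normalization and 0.28 without atf3[76] library 1. Without foxo/+ library 1 the ecdysone median was 0.14, beside 0.09 for all genes. The early ecdysone gene br had 22.0 and 5.90 FPKM in foxo/+ larvae and was listed at 1 and 5.75 FPKM in atf3[76] larvae. Kr-h1, a juvenile hormone response gene, had 8.63 and 5.97 FPKM in foxo/+ larvae and was listed at 1 in both atf3[76] libraries. Both lists were highest in foxo/+ library 1, whose 5 salivary gland markers summed to 4120 FPKM against 1080 FPKM in foxo/+ library 2 and 1141 and 2076 FPKM in the atf3[76] libraries; their part in these values was not tested.

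Of 15 tested blood cell genes none passed, 5 were lower and none higher without overlap, beside 6.64% and 32.7% of all genes, with a median log2 difference of -0.24, -0.52 after median centring, -0.32 after quantile normalization and -0.17 without atf3[76] library 1. CG8193, now PPO2, the prophenoloxidase of crystal cells, had 22.9 and 43.6 FPKM in foxo/+ larvae, against 98.1 and 87.4 FPKM in atf3[76] larvae (limma, adjusted p = 0.649). The phagocytic receptor gene nimC1 had 4.95 and 8.44 FPKM in foxo/+ larvae, against 11.2 and 11.6 FPKM in atf3[76] larvae (limma, adjusted p = 0.649). The 5 hemocyte markers summed to 33.4 and 43.2 FPKM in foxo/+ larvae and to 32.2 and 80.6 FPKM in atf3[76] larvae, with Pxn at 1 in 3 of these 4 libraries.

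**Figure D4:**
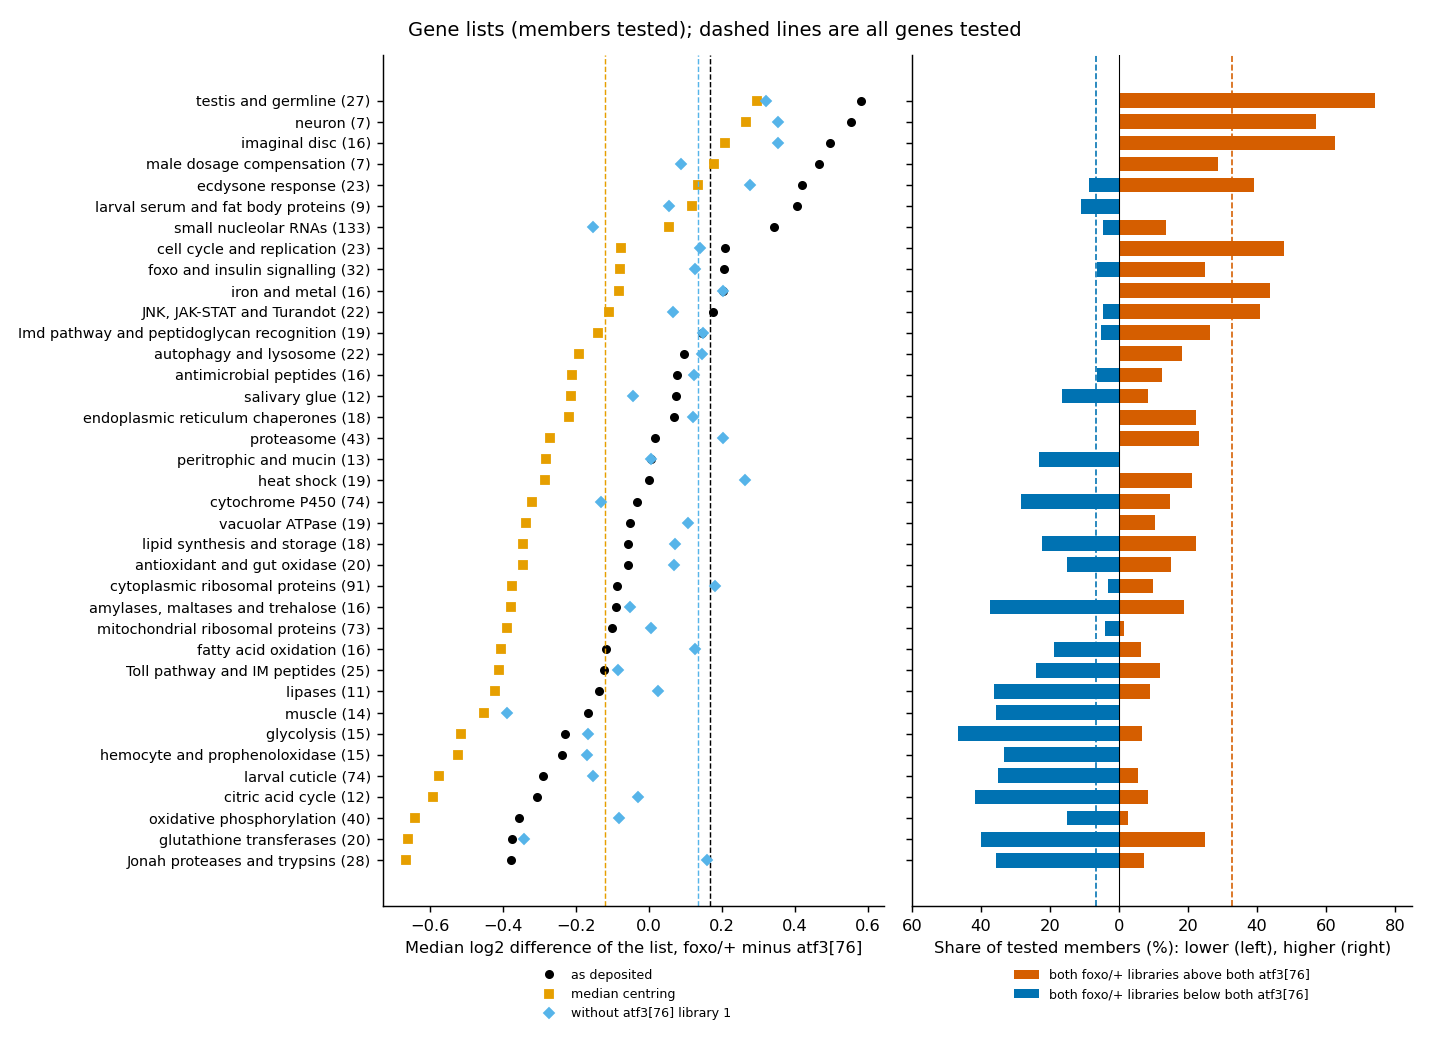
Left, the median log2 difference of foxo/+ minus atf3[76] for 37 gene lists of at least 7 tested members, lysozymes left out, with that number, as deposited, after median centring and without atf3[76] library 1; right, the percent of tested members whose libraries did not overlap, lower to the left and higher to the right. Dashed lines give the same values over all genes tested, 32.7% higher and 6.64% lower. Of the lists shown, testis and germline genes have the highest median as deposited and Jonah proteases the lowest. The Jonah list changes sign without atf3[76] library 1.

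Several large differences rested on a listing at 1 in atf3[76] library 1. The ferritin subunit genes Fer1HCH and Fer2LCH, which store iron, had 276 and 344 FPKM and 366 and 471 FPKM in foxo/+ larvae. In atf3[76] larvae Fer1HCH was listed at 1 and 216 FPKM and Fer2LCH at 1 and 271 FPKM. The genes overlap each other, and neither passed (limma, adjusted p = 0.649 for both), but both passed without atf3[76] library 2 (adjusted p = 0.00049). The trehalase gene Treh had 23.2 and 24.4 FPKM in foxo/+ larvae and was listed at 1 and 22.7 FPKM in atf3[76] larvae. The chaperone gene Cnx99A had 39.8 and 35.3 FPKM in foxo/+ larvae and was listed at 1 and 32.7 FPKM in atf3[76] larvae. In the other atf3[76] library the values of Treh and Cnx99A were near those of foxo/+ larvae. In all, 772 genes tested were listed at 1 in atf3[76] library 1 and above 1 in the other 3 libraries, and 151 of these had at least 10 FPKM in each of the 3.

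**Figure D5:**
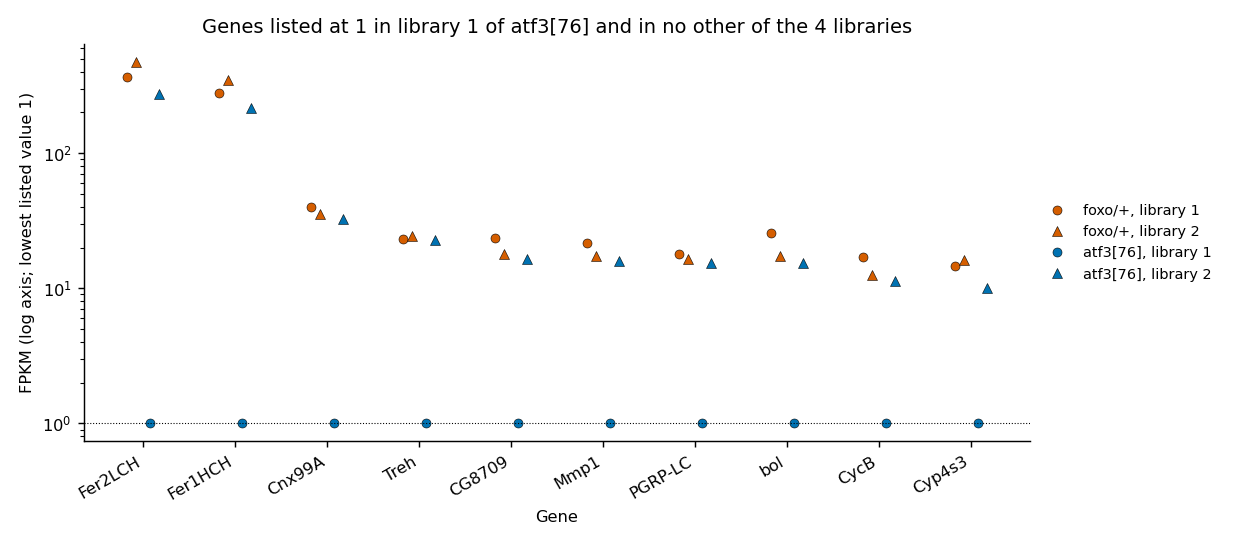
FPKM on a log axis of 10 genes in the foxo/+ and atf3[76] libraries (circle library 1, triangle library 2), all listed at 1 in atf3[76] library 1. In the other 3 libraries the 10 genes lie between 9.998 and 471 FPKM.

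By position, 5 of the 7 genes that passed lie on chromosome arm 3L, 4 of them in the lysozyme cluster, and 1 each on 2R and 3R. The share of genes at an unadjusted p of 0.05 was 3.74% on X, 7.17% on 2L, 5.77% on 2R, 5.88% on 3L and 5.95% on 3R. Within 1 Mb of foxo on arm 3R, 14 of 175 genes tested (8.00%) had an unadjusted p under 0.05, and none passed the adjusted threshold in limma. Over all genes tested that share was 5.75%, and no test of the difference was made. Of the 14 genes, 10 were higher and 4 lower in foxo/+ larvae. Cyp6d5, which ends at 9857206 while foxo starts at 9882673, had 38.6 and 36.8 FPKM in foxo/+ larvae, against 66.1 and 76.9 FPKM in atf3[76] larvae. It overlaps rdx (limma, adjusted p = 0.649). CG14850 had 9.76 and 28.3 FPKM in foxo/+ larvae and was listed at 1 in both atf3[76] libraries (limma, adjusted p = 0.0738).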

How the data were processed

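The authors deposited FPKM values per gene and library for whole male larvae, 2 libraries per genotype. Per the submitters' processing notes, TopHat 1.3.2, Cufflinks 1.1.0 and build dm3 were listed; no annotation, strand setting or filter is given in the sources used here. The deposited tables also hold a fold change score against y w, which was not used. The lowest deposited FPKM value is 1, and read depth is not given.

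Records sharing a symbol were collapsed to 1 gene. All 5 genotypes (10 libraries) were fitted in one limma 3.58.1 model (R 4.3.3) on log2(FPKM + 1), which understates changes of low genes, and foxo/+ minus atf3[76] was taken as a direct contrast. Genes above 1 in at least 1 of the 4 libraries compared were tested, with Benjamini-Hochberg adjustment at 0.05. A log2 difference of a gene listed at 1 throughout a group measures no fold. In simulated data 29.9%, 68.7% and 78.8% of genes changed by log2 1, 2 and 3 were recovered, with 5 false calls, on 11308 genes. The changed genes were drawn only from those with a mean log2 level above that of 10 FPKM. The noise was normal and independent, with no listings at 1 and no shift of whole libraries. The recovery therefore does not cover genes of lower level or listed at 1.

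Gene lists were counted, not tested. Members, lists and named genes were chosen with earlier results of these data known. Named were the alleles' genes and lysozymes, up to 15 passing genes per direction, the 15 non-overlapping genes per direction of smallest p above 1 in all 4 libraries with a mean of at least 5 FPKM, and up to 2 members per list without calls. Since strand is not stated, overlapping genes cannot be told apart. The alternatives were 16 planned and 1 added after seeing the data. Replicate numbers were not shown to pair libraries.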

Additional observations from a re-analysis of the deposited data

How the results depend on the processing

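The count of genes past the threshold, 6 higher and 1 lower, became 12 and 2 without a filter on low values, 3 and 1 for genes above 1 in all 4 libraries, 0 and 0 in limma on the 2 groups alone (581 at an unadjusted p of 0.05), and 11 and 13 without library 1 of both atf3[76] and y w. Leaving out 1 library gave between 9 and 153 higher and between 1 and 14 lower, where a lone library is assumed to vary like the other groups. The lower count was 2 with no pseudocount, a mean of at least 5 FPKM, median centring or limma-trend, and 0 with a pseudocount of 5, quantile normalization or the replicate block. With the replicate number as a block, 5 genes were higher and 0 lower, with 628 at an unadjusted p of 0.05. Same-numbered foxo/+ and atf3[76] libraries deviated with a correlation of -0.144. Over all pairs of genotypes that correlation ran from -0.294 for rel/+ and atf3[A]/+ to 0.455 for y w and atf3[76]. Crossing the numbers, chosen after seeing the data, also gave 5 and 0. The cause of these shifts was not tested. Signs turned for A3-3 (-0.0385 without atf3[76] library 1, also with y w library 1 left out; range over single omitted libraries -0.0385 to 1.01), foxo (-0.0053 with centring, -0.0478 with quantile normalization, -0.157 without atf3[76] library 1, also with y w library 1 left out; range -0.157 to 0.720), LysX (-0.0192 with centring, -0.102 without atf3[76] library 2; range -0.102 to 0.637), CG17544 (-0.0681 with centring) and hop (-0.0406 with quantile normalization). None of these 5 genes passed in any of these settings. With 2 libraries a group and unknown depth, a difference that missed the threshold is not shown to be absent.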
